A study of Homo sapiens with 12 samples.

Results

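The 10 genes described here belong to the BCL2 family and were measured across 2 melanoma cell lines and 2 drug treatments. The members were the rows of the count table whose gene symbol was BCL2, BCL2L1, BCL2L2, MCL1, BCL2A1, BAK1, BCL2L11, BMF, BID or BIK, which gave 10 rows, 1 per symbol, of 58307 rows naming a gene. Both lines, A375 and SK-MEL-28, are established cultures of human malignant melanoma. Cells of each line received etoposide, a poison of topoisomerase II that leaves DNA breaks, or etoposide + rapamycin, where rapamycin inhibits the kinase mTOR and induces autophagy. Each of the 4 groups had 3 polyA-selected RNA libraries, 12 in all. Every group carried etoposide, so the values show what rapamycin added to etoposide and how the lines differed, and untreated cells or rapamycin alone were not analysed here. The doses and times of the sequenced cultures are not given in the sources used here. The study describes the RNA-seq libraries of a group as biological replicates, and the sample labels do not state what separated them, so the p-values measure the spread between these libraries.

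BCL2 family proteins decide whether the outer mitochondrial membrane stays intact. The pro-survival proteins BCL2, BCL-XL (gene BCL2L1), BCL-W (BCL2L2), MCL1 and BFL1 (BCL2A1) hold the pore-forming effectors BAK (BAK1) and BAX in check. The BH3-only proteins BIM (BCL2L11), BMF, BID and BIK bind and block the pro-survival proteins, and some also activate the effectors directly. Melanoma cells are known to lean on MCL1, BCL-XL and BFL1, and BCL2A1 is a known target of the melanocyte factor MITF and of NF-kappaB.

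Library totals lay between 28189501 and 32499337 counts, and no library stood apart by depth. Levels are CPM, a gene's count relative to the size of its library, with sizes adjusted by TMM normalization over the 12 libraries. Differences are log2 fold changes with their standard errors (SE) from edgeR's quasi-likelihood test, and a gene passed at an adjusted p under 0.05 (Benjamini-Hochberg over all genes tested). A second call rule added a change of over 1.5-fold. All 10 members passed the filter on low counts in each comparison. Of the melanocyte lineage markers, SOX10 (group means 291 to 475 CPM) and S100B (58.5 to 98.2 CPM) were clearly present and MITF was lower (13.5 to 28.3 CPM). PMEL, MLANA, TYR, DCT and TYRP1 stayed under 3 CPM in every library. Of the 11 markers of other cell types, PTPRC, CD3E, CDH5, EPCAM and KRT5 stayed under 1 CPM in every library. The other 6 were present, with group means of 21.7 to 41.5 CPM for CD68, 4.39 to 25.6 for LUM, 5.28 to 9.81 for KRT14, 4.38 to 6.23 for PDGFRA, 1.05 to 5.73 for DCN and 1.37 to 5.22 for PECAM1.

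The windows before the transcription start are printed for the 3 members that passed in a rapamycin comparison below, BCL2A1, BAK1 and BCL2L11. Each is the 250 bases before the RefSeq start (GRCh38.p14), written 5′ to 3′ on the strand of the gene, and capitals mark matches on either strand to any of 7 motifs. The motif of FOXO factors was searched as GTAAACA. The M-box that MITF recognizes was searched as TCATGTG. The E-box of MYC and related factors was searched as CACGTG, and it shares no match with the M-box. For AP-1 the letters were TGACTCA. For the TATA box they were TATAAA. For the GC box of SP factors they were GGGCGG. The last motif was the kappaB consensus.
BCL2A1, chr15:79971197-79971446, reverse strand: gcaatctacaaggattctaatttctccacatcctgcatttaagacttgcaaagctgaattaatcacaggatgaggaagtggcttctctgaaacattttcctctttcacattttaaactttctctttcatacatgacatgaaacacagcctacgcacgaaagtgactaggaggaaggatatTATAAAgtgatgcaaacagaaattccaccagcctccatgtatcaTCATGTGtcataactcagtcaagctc
BAK1, chr6:33580277-33580526, reverse strand: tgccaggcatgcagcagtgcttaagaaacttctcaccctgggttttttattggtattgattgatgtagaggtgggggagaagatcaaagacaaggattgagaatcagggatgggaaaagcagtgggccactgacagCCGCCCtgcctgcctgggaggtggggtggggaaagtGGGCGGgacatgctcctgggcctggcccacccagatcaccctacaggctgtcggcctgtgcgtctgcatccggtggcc
BCL2L11, chr2:111120664-111120913, forward strand: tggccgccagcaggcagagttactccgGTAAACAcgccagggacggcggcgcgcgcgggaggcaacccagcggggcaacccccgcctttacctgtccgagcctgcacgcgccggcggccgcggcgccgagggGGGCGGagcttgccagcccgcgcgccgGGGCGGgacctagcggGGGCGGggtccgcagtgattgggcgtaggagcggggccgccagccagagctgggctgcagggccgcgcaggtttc

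In the BCL2A1 window, TATAAA began 70 bases and TCATGTG 26 bases before the start. Of 35116 RefSeq promoter windows, 10.7% held TATAAA and 2.52% held TCATGTG. The BAK1 window held 2 GC boxes, letters found in 42.6% of windows, and the BCL2L11 window held 3 of them besides a GTAAACA that began 223 bases before the start, letters found in 2.98% of windows. A match to CACGTG (6.34% of windows), TGACTCA (4.2%) or the kappaB consensus (5.21%) was present in none of the 3 windows. In GENCODE release 44 the BCL2A1 window lay outside every gene. Of the BAK1 window, 17 bases lay in an exon of BAK1, and all of it lay in an intron of GGNBP1 on the other strand. The BCL2L11 window lay in an intron of the longer BCL2L11 gene model and in an intron of the antisense MIR4435-2HG. A window was found for 7 of the 10 members, and these letter matches are descriptions and not binding sites.

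Divided by the length of the canonical transcript, MCL1 was the most abundant of the 10 members in each group and BCL2 the least. MCL1, a short-lived protein that must be made continuously, stood at 151.0 ± 3.44 CPM per kilobase (SD, n = 3) in A375 and at 125 ± 4.37 in SK-MEL-28 under etoposide. BCL2L1 came next with 23.2 ± 2.18 and 35.4 ± 1.37 CPM per kilobase. BCL2, the founding member of the family, had 0.286 ± 0.0492 and 0.276 ± 0.0926 CPM per kilobase in the same groups, from 51 to 68 counts per library in A375 and 36 to 74 in SK-MEL-28. The ranges of MCL1 and BCL2L1 were apart from each other and from those of the other members in each of the 4 groups. Below them the order depended on the line. In A375 with etoposide, BAK1 (16.9 ± 0.606 CPM per kilobase) was followed by BID (15.4 ± 0.561), BCL2L2 (15.0 ± 0.403) and BCL2A1 (13.9 ± 1.88), and the library ranges of BID and BCL2L2 overlapped, as did those of BCL2L2 and BCL2A1. With rapamycin in A375, BCL2A1 (19.4 ± 1.59 CPM per kilobase) came directly after BCL2L1 with a range above that of BCL2L2. In SK-MEL-28 with etoposide, BCL2A1 (0.750 ± 0.404 CPM per kilobase) came next to last, and its range overlapped those of both BIK above it and BCL2 below it. BMF and BCL2L11 had group means of 1.33 to 2.86 CPM per kilobase, and their ranges overlapped in each group other than SK-MEL-28 with etoposide + rapamycin.

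**Figure D1:**
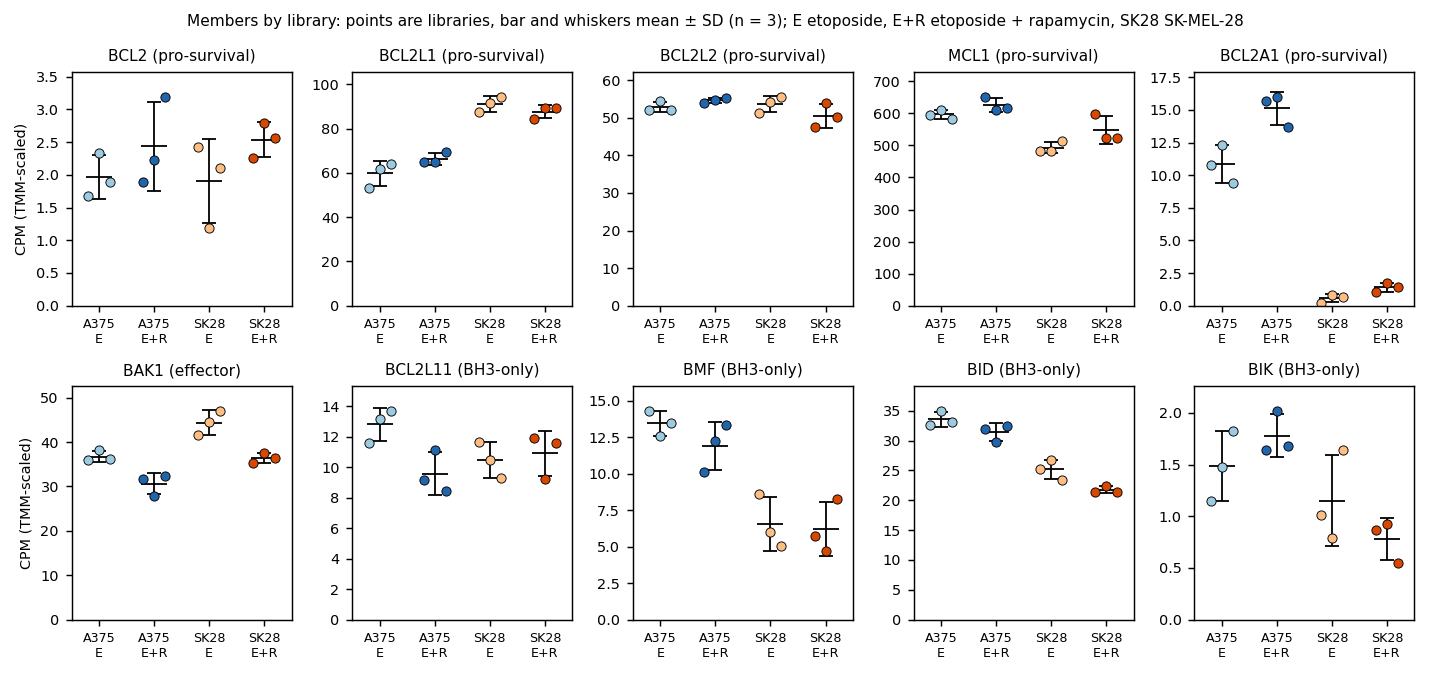
CPM (TMM-scaled) of each member in each of the 12 libraries, with A375 in blue and SK-MEL-28 in orange, E for etoposide and E+R for etoposide + rapamycin. Points are libraries, and the bar and whiskers are the mean and SD of 3 libraries. BCL2A1 sits at 9.41 to 16.0 CPM in A375 and at 0.229 to 1.75 CPM in SK-MEL-28, and BAK1 is lower with rapamycin in both lines without overlap.

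The 5 pro-survival genes summed to 203 ± 5.92 CPM per kilobase in A375 with etoposide and 220 ± 5.24 with etoposide + rapamycin, and to 176 ± 6.23 and 189 ± 8.79 in SK-MEL-28. In A375 the MCL1 part of this sum was 74.2 ± 0.901% under etoposide and 72.2 ± 0.760% once rapamycin was added. In SK-MEL-28 it was 70.7 ± 0.644% and 73.2 ± 2.41%. The makeup of the remainder differed between the lines. BCL2L1 held 11.4 ± 1.05% in A375 and 20.1 ± 0.327% in SK-MEL-28 with etoposide. BCL2A1 held 6.83 ± 0.744% in A375 and 0.422 ± 0.226% in SK-MEL-28 with etoposide, and 8.82 ± 0.696% and 0.958 ± 0.264% with etoposide + rapamycin. The canonical BCL2A1 transcript has 780 bases, the shortest of the 10, and from counts not divided by length BCL2A1 held 1.501% (A375) and 0.0909% (SK-MEL-28) under etoposide, and 1.98% and 0.205% once rapamycin was added. The 4 BH3-only members summed to 22.4 ± 0.722 CPM per kilobase in A375 with etoposide and 20.7 ± 0.435 with etoposide + rapamycin. In SK-MEL-28 they summed to 16.2 ± 0.735 and 14.3 ± 0.195, and BID was the largest part in every group. The pro-survival sum was 9.10 ± 0.259 times the BH3-only sum in A375 with etoposide and 10.6 ± 0.429 times with rapamycin, and 10.9 ± 0.896 and 13.3 ± 0.637 times in SK-MEL-28. These sums were not tested, since the members were chosen with earlier results known, and transcript sums do not give protein amounts.

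**Figure D2:**
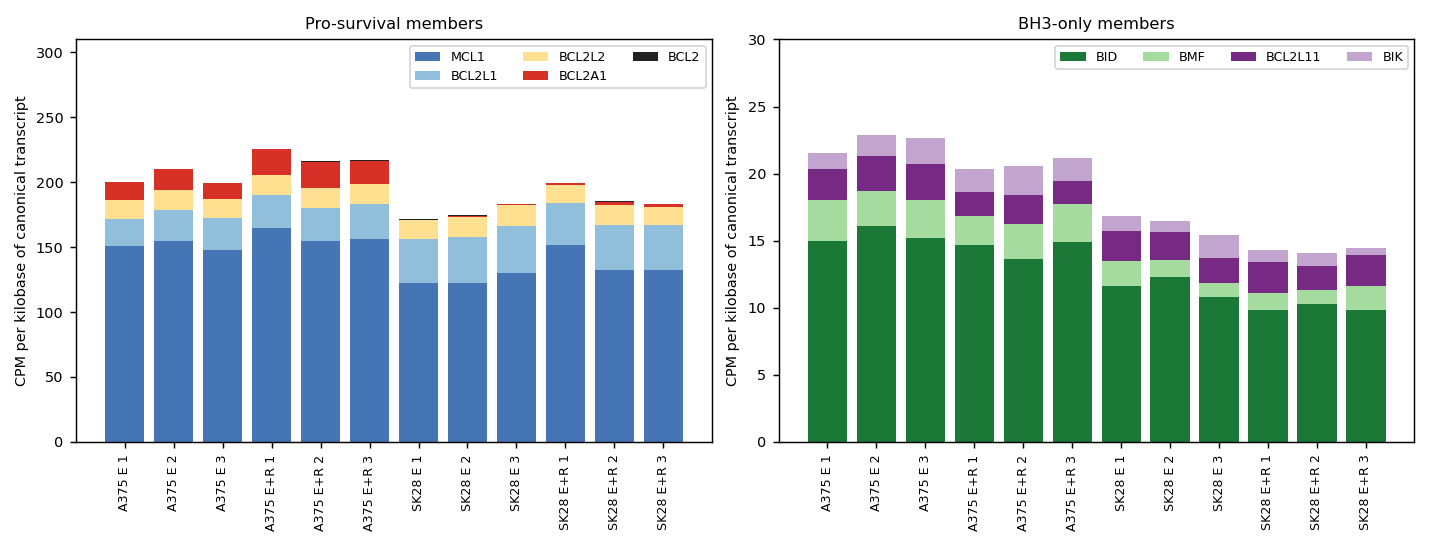
Stacked CPM per kilobase of the canonical transcript in each library for the pro-survival members (left) and the BH3-only members (right). MCL1 makes up most of each left bar, BCL2A1 is visible in A375 and thin in SK-MEL-28, and the right bars are lower in SK-MEL-28 (14.1 to 16.8) than in A375 (20.4 to 22.9).

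Rapamycin was compared with etoposide alone to ask which death regulators changed with the added drug. In A375, 3 of the 10 members passed, BCL2A1 upward and BAK1 and BCL2L11 downward, where 28.1% of all 18844 genes tested passed, 14.3% upward and 13.8% downward. None of the 3 changed by over 1.5-fold. By that stricter rule 0 of 10 members passed by edgeR, 0 with an unadjusted p under 0.05 and 0 by DESeq2, against 5.89% of all genes. The median absolute log2 fold change of all genes was 0.22.

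BCL2A1, the pro-survival gene for BFL1, had 10.8, 12.3 and 9.41 CPM in the A375 libraries with etoposide and 15.7, 16.0 and 13.7 CPM with etoposide + rapamycin. Each library with rapamycin lay above each library without it. The log2 fold change was 0.48 (SE 0.12, adjusted p = 0.0089), a rise of 1.40-fold. In a fit of all 12 libraries, with a log2 fold change of 0.48, BCL2A1 did not pass (adjusted p = 0.0712).

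BAK1, the effector that sits on mitochondria and forms the pore once activated, had 35.9, 38.3 and 36.1 CPM with etoposide and 31.7, 27.9 and 32.3 CPM with etoposide + rapamycin. The groups did not overlap, and the log2 fold change was -0.26 (SE 0.075, adjusted p = 0.0213). The call ended without etoposide + rapamycin replicate 2, the lowest library (log2 fold change -0.19, adjusted p = 0.0987), and without etoposide replicate 2, the highest (-0.23, adjusted p = 0.0793).

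BCL2L11, whose BH3-only protein BIM binds every pro-survival member, had 11.6, 13.2 and 13.7 CPM with etoposide and 9.17, 11.1 and 8.46 CPM with etoposide + rapamycin. Each treated library lay below each library with etoposide alone, although the nearest pair was close. The log2 fold change was -0.41 (SE 0.12, adjusted p = 0.0259). Without etoposide + rapamycin replicate 1 or 3, or etoposide replicate 2 or 3, it no longer passed (log2 fold change -0.38, -0.33, -0.39 and -0.36, adjusted p = 0.0819, 0.106, 0.0725 and 0.0976). When every gene with at least 1 count in some library was kept, so that more genes were tested, neither BAK1 (adjusted p = 0.0568) nor BCL2L11 (adjusted p = 0.0812) passed in A375.

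Of the other pro-survival genes in A375, BCL2L1 had a log2 fold change of 0.16 (SE 0.067, adjusted p = 0.103) and MCL1 one of 0.08 (SE 0.043, adjusted p = 0.218), both with groups that did not overlap. BCL2 (0.31, SE 0.25) and BCL2L2 (0.05, SE 0.051) had overlapping groups. Among the BH3-only genes, BID, which links death receptors to mitochondria when caspase-8 cuts it, had -0.09 (SE 0.070), BMF had -0.17 (SE 0.12) and BIK had 0.27 (SE 0.26), with adjusted p from 0.311 to 0.481. In all, 6 of the 10 members had groups that did not overlap, where 42.6% of all genes did. The interval of the MCL1 change, from -0.01 to 0.16 on the log2 scale, leaves out changes of 1.5-fold, whereas those of BCL2 (-0.18 to 0.80) and BIK (-0.23 to 0.77) do not.

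In SK-MEL-28, 1 of the 10 members passed, where 19.0% of all 18897 genes tested did, 8.83% higher and 10.1% lower. It was BAK1, with 41.6, 44.6 and 47.0 CPM with etoposide and 35.3, 37.6 and 36.3 CPM with etoposide + rapamycin. The groups did not overlap, and BAK1 fell with a log2 fold change of -0.29 (SE 0.065, adjusted p = 0.00778). Without etoposide replicate 3, the highest library, BAK1 did not pass (log2 fold change -0.24, adjusted p = 0.0543). By DESeq2, 3 members passed in this line, and in a fit of all 12 libraries 4 did. No member passed with a change of over 1.5-fold by edgeR, against 4.99% of all genes, and BCL2A1 met that rule with an unadjusted p under 0.05 and by DESeq2, 1 member in each case.

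BCL2A1 was near its detection limit in SK-MEL-28. Its CPM were 0.229, 0.827 and 0.699 with etoposide, from 7, 25 and 23 counts, and 1.07, 1.75 and 1.40 with etoposide + rapamycin, from 33, 49 and 43 counts. The groups did not overlap, and the log2 fold change of 1.25 (SE 0.41) just missed the threshold (adjusted p = 0.0519). It passed by DESeq2 (1.26, adjusted p = 0.0279), in the fit of all 12 libraries (1.25, adjusted p = 0.00759) and without etoposide replicate 2 (1.57, adjusted p = 0.0466), and over the 6 fits that left out 1 library the log2 fold change ranged from 0.87 to 1.57.

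MCL1 in SK-MEL-28 had 483, 483 and 513 CPM with etoposide and 599, 524 and 522 CPM with etoposide + rapamycin. Its log2 fold change was 0.15 (SE 0.058, adjusted p = 0.0899), and it passed by DESeq2 (adjusted p = 0.0412) and in the fit of all 12 libraries (adjusted p = 0.0453). BID had 25.3, 26.7 and 23.5 CPM with etoposide and 21.4, 22.4 and 21.5 CPM with etoposide + rapamycin. Its log2 fold change was -0.21 (SE 0.081, adjusted p = 0.0881), and it passed in the fit of all 12 libraries (adjusted p = 0.0456) and with library totals in place of TMM (-0.25, adjusted p = 0.0485). Both genes had groups that did not overlap, as did 4 of the 10 members and 35.9% of all genes. BCL2L11, one of the A375 calls, had 11.7, 10.5 and 9.33 CPM with etoposide and 11.9, 9.22 and 11.6 CPM with etoposide + rapamycin, and its groups overlapped (log2 fold change 0.06, SE 0.13, adjusted p = 0.81). BCL2 (0.41, SE 0.26), BCL2L1 (-0.06, SE 0.052), BCL2L2 (-0.09, SE 0.061), BMF (-0.07, SE 0.22) and BIK (-0.56, SE 0.36) also had overlapping groups and adjusted p from 0.312 to 0.873.

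**Figure D3:**
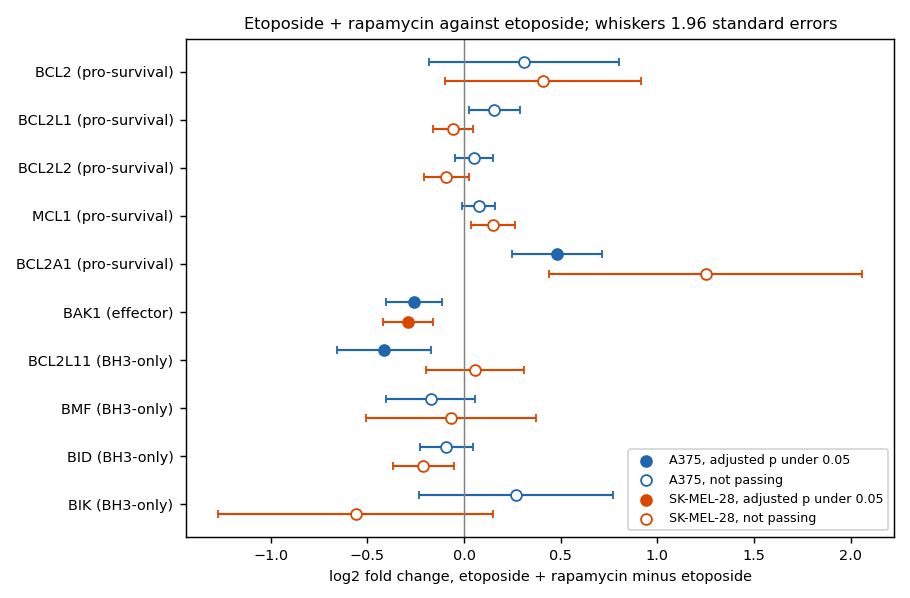
Log2 fold change of each member, etoposide + rapamycin minus etoposide, in A375 (blue) and SK-MEL-28 (orange), with whiskers of 1.96 SE. Filled points passed at an adjusted p under 0.05, BCL2A1 (0.48), BAK1 (-0.26) and BCL2L11 (-0.41) in A375 and BAK1 (-0.29) in SK-MEL-28.

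Whether the response differed between the lines was tested directly over all 12 libraries, which reuses the libraries of both comparisons. By edgeR 0 of the 10 members passed, and 0 by DESeq2, where 5.62% of 20101 genes did. At an unadjusted p under 0.05 there were 3, BCL2L11, BCL2A1 and BCL2L1. For BCL2L11 the response in SK-MEL-28 minus that in A375 was 0.48 on the log2 scale (SE 0.18, adjusted p = 0.149), for BCL2A1 0.77 (SE 0.36, adjusted p = 0.234) and for BCL2L1 -0.21 (SE 0.090, adjusted p = 0.204). BAK1, the one member called in both lines, had a difference of -0.02 (interval -0.21 to 0.16). A fall of BCL2L11 particular to A375 is therefore not shown by this test.

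Levels in SK-MEL-28 were then compared with those in A375 under each treatment. With etoposide, 6 of the 10 members passed, 2 higher and 4 lower in SK-MEL-28, where 31.8% of 20101 genes did (15.1% higher and 16.7% lower), and 3 of them by over 1.5-fold, where 12.5% did. With etoposide + rapamycin, in the other 6 libraries, 7 passed, 2 higher and 5 lower, where 37.8% of genes did (18.9% in each direction), and 3 of them by over 1.5-fold, where 14.4% did. The groups did not overlap for 6 members with etoposide (43.3% of all genes) and for 8 with etoposide + rapamycin (49.2%).

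BCL2A1 differed most of the 10. It was lower in SK-MEL-28 by a log2 fold change of -4.20 (SE 0.26, adjusted p = 1.29e-09) with etoposide, 18.4-fold, and of -3.43 (SE 0.23, adjusted p = 3.17e-09) with etoposide + rapamycin, 10.8-fold. BCL2L1 was higher in SK-MEL-28, with 87.3, 91.6 and 94.3 CPM against 53.4, 62.0 and 64.0 in A375 with etoposide (log2 fold change 0.61, SE 0.064, adjusted p = 1.13e-06). With etoposide + rapamycin it had 84.1, 89.5 and 89.5 CPM against 64.8, 64.8 and 69.6 (0.40, SE 0.064, adjusted p = 8.74e-05). MCL1 was lower in SK-MEL-28, by -0.27 (SE 0.051, adjusted p = 4.85e-04) with etoposide and -0.19 (SE 0.051, adjusted p = 0.0069) with rapamycin added. So among the pro-survival genes the lines differed in opposite directions for BCL2L1 against MCL1 and BCL2A1, and BCL2 (-0.05 and 0.06) and BCL2L2 (0.02 and -0.11) did not pass with either treatment.

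Of the death-promoting members, BAK1 was higher in SK-MEL-28 (0.27, SE 0.067, adjusted p = 0.00467 with etoposide, and 0.25, SE 0.068, adjusted p = 0.00816 with etoposide + rapamycin). Without A375 etoposide + rapamycin replicate 2 the latter did not pass (0.19, adjusted p = 0.0513). BMF, whose protein is held at the cytoskeleton until cells detach or are stressed, was lower, with 8.60, 5.99 and 5.01 CPM in SK-MEL-28 against 14.3, 12.6 and 13.5 in A375 with etoposide (-1.04, SE 0.20, adjusted p = 5.16e-04) and -0.93 (SE 0.20, adjusted p = 0.00124) with etoposide + rapamycin. BID was lower by -0.42 (SE 0.068, adjusted p = 1.54e-04) and -0.53 (SE 0.069, adjusted p = 1.27e-05). BIK, a BH3-only protein of the endoplasmic reticulum, passed with etoposide + rapamycin, at 0.872, 0.929 and 0.553 CPM in SK-MEL-28 against 1.65, 2.02 and 1.68 in A375 (-1.18, SE 0.32, adjusted p = 0.00718), and not with etoposide (-0.36, SE 0.31, adjusted p = 0.42). BCL2L11 was the BH3-only member that passed with neither treatment (-0.29, adjusted p = 0.106, and 0.19, adjusted p = 0.285).

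**Figure D4:**
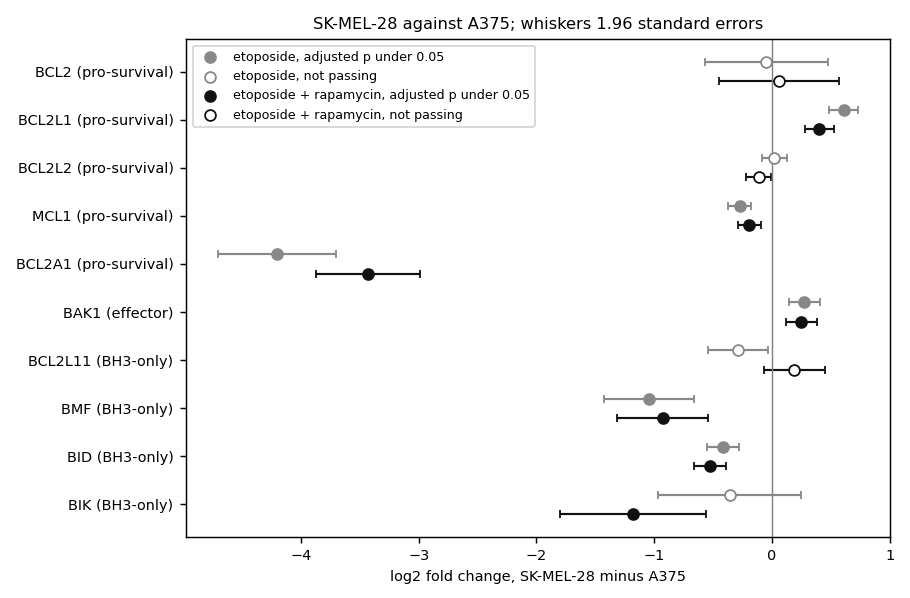
Log2 fold change of each member, SK-MEL-28 minus A375, with etoposide (grey) and with etoposide + rapamycin (black), and whiskers of 1.96 SE. Filled points passed at an adjusted p under 0.05. BCL2A1 lies at -4.20 and -3.43, BMF at -1.04 and -0.93, and BCL2L1 and BAK1 lie to the right of 0 with both treatments.

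The counting at some loci limits the values. The BCL2L2 row shares its locus with PABPN1 and with the read-through gene BCL2L2-PABPN1, which together held 47328 counts against 19027 for BCL2L2, and when the rows of BCL2L2 and BCL2L2-PABPN1 were summed the sign changed in the rapamycin comparisons (-0.05 in A375 and 0.02 in SK-MEL-28) and with etoposide between the lines (-0.10), none of them passing. The antisense gene at the MCL1 locus, ADAMTSL4-AS1, held 357 counts against 203226. These are whole cultures, so fewer expressing cells and less RNA per cell cannot be told apart. Markers of other cell types also moved with rapamycin. Of the 11, 6 were tested in A375, where CD68 was higher and LUM and DCN lower, and 8 in SK-MEL-28, where CD68 was higher and LUM and PECAM1 lower. LUM fell by 0.73 and 0.66 on the log2 scale in the 2 lines. Of the melanocyte markers, MITF, S100B and DCT fell in A375 and MITF in SK-MEL-28. Their part in the results was not tested.

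Other genes of the pathway were read from 6 lists with 66 genes, of which 62 were tested in each line. In A375 30 of them passed and in SK-MEL-28 21 did, against 28.1% and 19.0% of all genes, and 15 passed in both lines, 8 higher and 7 lower in both. The share of all genes that passed in both lines in the same direction was not computed. The overlap is therefore not read as a trait of these lists. Among 13 other BCL2 family genes, 11 were tested. In A375 5 rose and 3 fell (median log2 fold change -0.05), and in SK-MEL-28 2 rose and 2 fell (median 0.08). BAX, the second effector, rose in both lines, from 208 to 242 CPM in A375 (0.22, SE 0.060, adjusted p = 0.0147) and from 231 to 270 CPM in SK-MEL-28 (0.22, SE 0.049, adjusted p = 0.00622), where BAK1 fell. BBC3, the gene for the BH3-only protein PUMA, rose by 0.40 (adjusted p = 2.52e-04) and 0.34 (adjusted p = 0.008). BAD rose in A375 (0.40, adjusted p = 0.00331) and did not pass in SK-MEL-28 (0.14, adjusted p = 0.339). PMAIP1, the gene for NOXA, which binds MCL1, fell in A375 (-0.37, adjusted p = 0.0104) and did not pass in SK-MEL-28 (0.02, adjusted p = 0.933). BNIP3, a BH3-like mitophagy receptor induced by hypoxia, and its relative BNIP3L fell in both lines (-0.73 and -0.45 in A375, -1.18 and -0.58 in SK-MEL-28). BCL2L12 rose in A375 (0.57, adjusted p = 4.45e-04).

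The apoptosome, mitochondrial factors and caspases numbered 14, all tested. In A375 1 rose and 3 fell (median -0.04), and in SK-MEL-28 0 rose and 4 fell (median -0.12). CASP2 rose in A375 (0.40) and ENDOG, a mitochondrial nuclease, fell in SK-MEL-28 (-0.38). Of 7 inhibitors of apoptosis, 6 were tested, with 2 higher and 1 lower in A375 (median 0.04) and 2 higher in SK-MEL-28 (median 0.08). BIRC3, the inhibitor cIAP2 and a known NF-kappaB target, rose by over 1.5-fold in both lines, from 81.6 to 131 CPM in A375 (0.68, adjusted p = 7.97e-06) and from 34.4 to 52.4 CPM in SK-MEL-28 (0.60, adjusted p = 6.41e-05). BIRC5, or survivin, rose in A375 (0.57, adjusted p = 0.0021) and NAIP in SK-MEL-28 (0.37, adjusted p = 0.0287).

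The death receptor pathway had 10 of 11 genes tested, with 2 higher and 3 lower in A375 (median -0.05) and 2 lower in SK-MEL-28 (median 0.04). CASP10 fell (-0.59) and TRADD rose (0.27) in A375, and the receptors TNFRSF1A (-0.26) and TNFRSF10A (-0.22) fell in SK-MEL-28. TNFRSF1A fell in A375 as well (-0.18, adjusted p = 0.00946). Of the 11 binding partners and turnover factors, 1 rose and 2 fell in A375 (median -0.06) and 1 rose and 1 fell in SK-MEL-28 (median -0.11). TPT1, a translationally controlled protein that binds MCL1, rose in both lines (0.25 and 0.45). MOAP1, a partner of BAX, fell in A375 (-0.28), and HUWE1, a ubiquitin ligase of MCL1, fell in SK-MEL-28 (-0.33, from 700 to 559 CPM).

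Of 10 transcription factors known to act on members, 4 rose and 3 fell in each line (medians -0.03 and 0.08). MITF, known to activate BCL2A1, fell from 19.3 to 13.5 CPM in A375 (-0.51, adjusted p = 0.00248) and from 28.3 to 20.1 CPM in SK-MEL-28 (-0.50, adjusted p = 0.0032). BCL2A1 rose in A375 and did not pass in SK-MEL-28 (adjusted p = 0.0519). NFKB1 rose in both lines (0.36, adjusted p = 1.45e-04, and 0.41, adjusted p = 8.65e-05), as did RELA (0.27 and 0.20). E2F1 rose from 41.4 to 65.1 CPM in A375 (0.66, adjusted p = 1.80e-05), and EGR1, an immediate early gene, rose from 32.5 to 58.3 CPM in SK-MEL-28 (0.84, adjusted p = 5.05e-05). FOXO3, known to activate BCL2L11, had log2 fold changes of -0.03 (adjusted p = 0.788) and -0.07 (adjusted p = 0.624). Whether any of these factors had a part in the changes of the members was not tested.

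**Figure D5:**
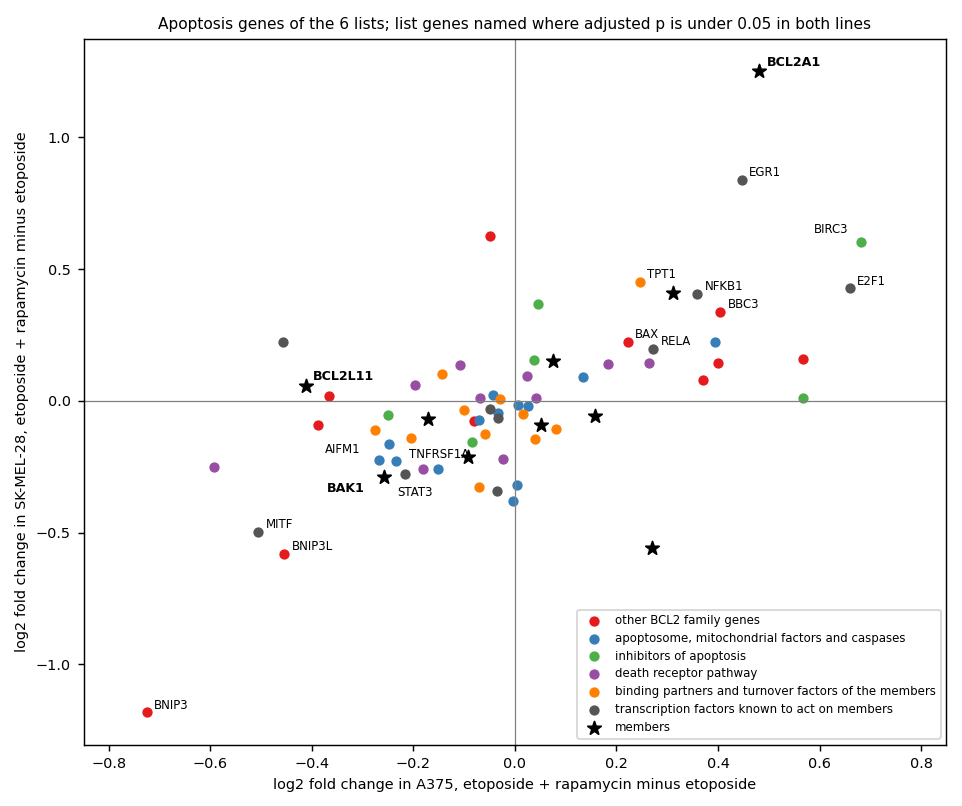
Log2 fold change with rapamycin in A375 (x axis) against SK-MEL-28 (y axis) for the tested genes of the 6 lists other than 1 not reported here, coloured by list, and for the 10 members (stars). The plotted list genes that passed in both lines are named, and each lies at the upper right or the lower left. The share of all genes that do so was not computed. BCL2A1 lies at the upper right, BAK1 at the lower left and BCL2L11 left of 0 near the horizontal axis.

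The genes whose log2 CPM was most like that of BCL2A1 over the 12 libraries, among 12712 genes, were EGR3, KLF11 and PINLYP, each with a Pearson r of 0.987. The points share cell line and treatment, and most of this likeness is the gap between the lines. Within A375 alone r was -0.03 for EGR3, 0.951 for KLF11 and 0.869 for PINLYP, and within SK-MEL-28 it was 0.941, 0.897 and 0.967. For BCL2L11 the nearest were MUC15 (r = 0.905), LDAH (0.888) and ANKHD1 (0.877), and for BCL2 they were L3MBTL1 (0.85), ZNF358 (0.807) and QTRT2 (0.794).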

How the data were processed

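RNA was sequenced from 12 polyA-enriched libraries of A375 and SK-MEL-28 cells. The authors aligned filtered reads to GRCh38 (HISAT), converted alignments with Samtools and estimated expression with StringTie from the Ensembl annotation. They deposited whole-number estimated counts per gene and library, not normalized. How coverage became counts is not given in the sources used here, so the deposited values are treated here like expected (estimated) counts, and precision is taken from the spread between libraries. Rows naming no gene (5 rows, 0.000991% to 0.00529% of counts) were left out.

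Tests used edgeR 4.0.16 in R 4.3.3 (filterByExpr with a minimum count of 10, TMM, glmQLFit and glmQLFTest). Each line was fitted alone for rapamycin, and a fit of all 12 libraries gave the difference in response and the cell line comparisons. The SE is |log2 fold change|/√F, and intervals are 1.96 SE. This multiple does not widen for few libraries, so the intervals and whiskers are narrower than the test. For BCL2L2 between the lines with etoposide + rapamycin, the interval was -0.22 to -0.0056 and edgeR's unadjusted p was 0.0555. The scripts were tested on simulated data. No 2 libraries held the same values. Canonical transcripts and positions came from GENCODE release 44. All members, the 6 pathway lists and the markers were chosen with earlier results of these data known. Of each list and comparison, the 2 passing genes with the largest change were named, plus genes past 1.5-fold in both lines. BAX, BAD, BBC3, PMAIP1, RELA, NFKB1, FOXO3 and CD68 fall outside that rule and were chosen after their values were seen. The same holds for BNIP3L, EGR1 and TNFRSF1A in A375, E2F1 in SK-MEL-28, MITF between the lines, and the levels of the markers. A gene of the lists that the rule would name is not reported here, though the counts of the lists include it. Alternatives were DESeq2 1.42.0, other scalings and filters, summed rows, the replicate number as a block, other sets of libraries, and each library left out. Likeness used genes with a mean count of at least 100 and a prior count of 2.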

Additional observations from a re-analysis of the deposited data

Results flagged for a closer look

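None of the 10 members met a rule for a closer look, and groups of 3 libraries were not tested for outlying samples. Among the genes of the 6 pathway lists, 4 of 62 tested responded differently to rapamycin in the 2 lines by edgeR's test of the difference (SK-MEL-28 minus A375, log2 scale). Of all 20101 genes 5.62% did, so the count is near the share of all genes. BNIP3, the mitophagy receptor, fell more in SK-MEL-28 (difference -0.45, SE 0.096, adjusted p = 0.0115). BIRC5, or survivin, had a difference of -0.55 (SE 0.14, adjusted p = 0.032), with values of 0.57 for A375 and 0.01 for SK-MEL-28. TPT1 rose more in SK-MEL-28 (difference 0.21, SE 0.051, adjusted p = 0.0209). DDIT3, the stress factor CHOP, had a difference of 0.69 (SE 0.15, adjusted p = 0.0118), with values of -0.46 for A375 (adjusted p = 0.00165) and 0.22 for SK-MEL-28 (adjusted p = 0.224).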

How the results depend on the processing

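Depth limits BCL2, BIK and, in SK-MEL-28, BCL2A1, each under 100 counts per library, and small changes of these genes were not detectable. No member changed sign with DESeq2, RLE size factors or library totals. With library totals the split of all genes called moved from 2691 higher and 2604 lower to 2213 and 3364 in A375, and from 1668 and 1914 to 1337 and 2379 in SK-MEL-28.

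Of the 10 members, the number passing in A375 was 1 when genes with 1 count or more were all kept and 0 with the 1.5-fold rule. In SK-MEL-28 it was 3 by DESeq2, 2 with library totals (BID being the added one), 4 in the fit of all libraries and 0 with the 1.5-fold rule, and between the lines that rule gave 3 with either treatment. Leaving out a library gave 1 to 3 members in A375 (1 without etoposide replicate 2), 0 to 2 in SK-MEL-28 (2 without etoposide replicate 2 and 0 without etoposide replicate 3), 0 for the difference in response, 6 with etoposide and 6 to 8 with etoposide + rapamycin between the lines.

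Over all genes, the 1.5-fold rule gave 1109 calls in A375, 943 in SK-MEL-28, 326 for the difference, and 2522 and 2894 between the lines. The difference in response, 1130 calls, had 1811 by DESeq2, 658 with all genes of 1 count or more, and 594 to 1315 when a library was left out (594 without A375 etoposide + rapamycin replicate 3, 642 without A375 etoposide replicate 3, 616 and 705 without SK-MEL-28 etoposide replicates 2 and 3, and 710 without SK-MEL-28 etoposide + rapamycin replicate 2). Apart from these construction changes the cause was not tested.

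The sign changed, with no call, for BCL2L2 when summed with BCL2L2-PABPN1 (-0.048 in A375, 0.023 in SK-MEL-28 and -0.10 between the lines with etoposide). It also changed when a library was left out, for BCL2L11 (-0.020 to 0.17) and BMF (-0.33 to 0.18) in SK-MEL-28, for the differences in response of BCL2 (-0.14 to 0.35), BAK1 (-0.086 to 0.021) and BMF (-0.15 to 0.36), and between the lines for BCL2 with etoposide (-0.25 to 0.20) and with etoposide + rapamycin (-0.092 to 0.30) and for BCL2L2 with etoposide (-0.0052 to 0.052).

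Without division by length the MCL1 share was 82.6% and 81.9% in A375 with etoposide and etoposide + rapamycin, and 77.0% and 79.3% in SK-MEL-28, and with the joined exon length, chosen after seeing the data as was the sum of BCL2L2 rows, it was 72.6% and 70.3% in A375.

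The replicate numbers share no stated origin, and the deviations of libraries with the same number correlated at -0.030 to 0.021 (highest other pair 0.039). No pairing by number was seen, although such correlations cannot exclude a shared culture or day. With the replicate number as a block, 2 members passed in SK-MEL-28, BCL2A1 being the added one (1.33, adjusted p = 0.0288), and the calls over all genes were 4480 in A375, 3364 in SK-MEL-28 and 1054 for the difference. The numbers of members passing in the other 4 comparisons did not move with the block.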

Other observations

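The 6 lists were also read between the lines, where 15.1% of all genes were higher and 16.7% lower in SK-MEL-28 with etoposide and 18.9% were called in each direction with etoposide + rapamycin. The counts below were given no test against those shares. With etoposide, 6 of 14 apoptosome and caspase genes were higher in SK-MEL-28 and 1 lower, and with etoposide + rapamycin 5 were higher and 1 lower. CASP6, an executioner caspase, was higher with both treatments (0.68, adjusted p = 6.65e-04, and 0.70, adjusted p = 5.43e-04), CASP2 was higher with etoposide (0.40) and DFFA, the inhibitor of a caspase-activated nuclease, with etoposide + rapamycin (0.37). Of 6 inhibitors of apoptosis tested, 1 was higher and 3 lower in SK-MEL-28 with either treatment. BIRC3 was lower, 34.4 against 81.6 CPM with etoposide (-1.24, adjusted p = 4.50e-10) and 52.4 against 131 CPM with etoposide + rapamycin (-1.32, adjusted p = 1.39e-10), and BIRC2 was lower too (-0.52 and -0.40).

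Of the transcription factors acting on members, 2 were higher and 7 lower in SK-MEL-28 with etoposide, and 2 higher and 5 lower with etoposide + rapamycin. E2F1 (-1.34 and -1.56) and FOXO1 (-0.95 and -1.25) were the lowest. MITF was higher in SK-MEL-28 (0.56 and 0.57), where BCL2A1 was lower, and a link between them was not tested. Among the other BCL2 family genes 5 were higher and none lower with etoposide, led by BNIP3 (0.57) and BCL2L13 (0.32), and 4 were higher and 2 lower with etoposide + rapamycin, with HRK at 1.03 from under 2 CPM and BOK at -0.35. In the death receptor pathway 2 were higher and 5 lower with etoposide (TNFRSF10A 0.46, FAS -0.41), and 3 higher and 3 lower with etoposide + rapamycin (CASP8 0.58, CASP10 0.55). Of the 11 binding partners 3 were higher and 1 lower with either treatment, a share near that of all genes, led by BECN1 (0.34 and 0.42), HUWE1 with etoposide (0.25) and DYNLL1 with etoposide + rapamycin (0.36).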
